A study of Mus musculus with 167 samples.

Results

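The family of miR-204 and miR-211 comprises miR-204-5p, the other arm of its hairpin, miR-204-3p, and miR-211-5p, a near-identical copy of miR-204-5p made from a second gene. These 3 mature microRNAs (miRNAs) of 1915 in the count tables were chosen by name, with their measured counts by tissue, strain and irradiation known. Levels by tissue, strain and irradiation are therefore descriptions. For the members, fitted strain and irradiation differences are printed with their standard errors and with whether they met a call rule, but nothing is read from these calls, whether met or not. The differences by sex and by a letter in the sample titles were not used in the choice and were tested. All 3 were present in each of the 5 tables. miR-204-5p passed the filter on low counts in brain, heart and lung, miR-204-3p passed in brain only, and miR-211-5p passed in no tissue.

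Mature miRNAs were sequenced in libraries of brain, heart, lung, a white blood cell (WBC) fraction and a red blood cell (RBC) fraction from 35 young adult mice of the strains C3H and C57Bl/6 (C57), which received either irradiation of the whole thorax (WTLI) or a sham procedure, the rest of the body being shielded by lead. C3H tissues were taken at month 4 and C57 tissues at month 6, so strain and time cannot be told apart. In brain, heart, lung and RBC there were 8 sham and 7 irradiated C3H libraries, and 15 sham and 5 irradiated C57 libraries. WBC gave 5 and 6 C3H libraries and 11 and 5 C57 libraries. Within a tissue each library came from a different animal, and a mouse gave libraries of up to 5 tissues. All animals had survived to the endpoint. Every C3H mouse was female, whereas C57 sham mice were 8 males and 7 females and irradiated C57 mice were 4 males and 1 female, so strains were compared among sham females and sexes among C57 sham mice.

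Libraries held 1794995 to 7865102 miRNA counts, and 1 count was worth 0.127 to 0.557 CPM (counts per 1000000 counts of the library). miR-124-3p was higher in all 35 brain libraries, miR-208a-3p in all 35 heart libraries and miR-34c-5p in all 35 lung libraries than in any library of another tissue. The blood fractions were less clearly separated, since the summed leukocyte list of 5 miRNAs spanned 10623 to 33448 CPM in WBC and 8203 to 45244 CPM in RBC. In heart, 1 library stood apart, replicate 3 of irradiated C3H, in which the list of 4 cardiac muscle miRNAs summed to 5.07% of counts against 15.2% to 29.9% in the 34 others. In brain, the 4 libraries of C57 females with the title letter B were among the 6 that deviated most from the tissue median.

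miRNAs are short RNAs that guide Argonaute proteins to messenger RNAs, mainly by pairing of the seed, bases 2 to 8 from the 5′ end, so miRNAs with the same seed share most predicted targets. miR-204 is known from the choroid plexus, the retinal pigment epithelium and lens, pancreatic beta cells and pulmonary artery smooth muscle, and miR-211 from the melanocyte lineage, where the transcription factor MITF drives its host gene. In the hairpin of miR-204, the 5p arm is the usual guide strand and the 3p arm the usual passenger strand.

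The mature sequences are shown because the family is defined by them. The seed is in capitals and the sequences are those of RefSeq on GRCm38.p6, the assembly called mm10 in the submitters' processing notes, in which all 3 members were matched.
mmu-miR-204-5p: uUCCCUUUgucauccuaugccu
mmu-miR-211-5p: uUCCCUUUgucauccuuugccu
mmu-miR-204-3p: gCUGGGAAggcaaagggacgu
mmu-miR-211-3p: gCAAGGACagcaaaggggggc
mmu-miR-7670-3p: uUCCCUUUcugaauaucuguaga
miR-204-5p lies at chr19:22750610-22750631 and miR-204-3p at chr19:22750649-22750669, both on the plus strand in an intron of Trpm3, which encodes a cation channel. miR-211-5p lies at chr7:64205831-64205852, on the plus strand in an intron of Trpm1, a related channel gene. miR-204-5p and miR-211-5p were both 22 bases long and differed by 1 substitution, A17U, counted from 1 at the 5′ end with the base of miR-204-5p first. The seed of both is the same, and the difference lies outside it, so reads of each are told apart by that base alone. The seed of miR-204-3p differs from that of both. Of 1679 mature mouse miRNAs with a sequence, 3 shared the seed of miR-204-5p, and the third was miR-7670-3p at chr6:38507371-38507393. The hairpins are printed to show where the arms, in capitals, were cut.
Mir204: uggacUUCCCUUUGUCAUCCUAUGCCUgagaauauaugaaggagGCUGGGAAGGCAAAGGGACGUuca
Mir211: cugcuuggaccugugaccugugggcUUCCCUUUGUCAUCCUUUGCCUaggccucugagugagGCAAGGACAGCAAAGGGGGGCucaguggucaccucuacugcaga

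miR-204-5p was abundant in brain, moderate in heart, low in lung and near the counting floor in blood. Over the 35 brain libraries it ranged from 789 to 2819 CPM, with a median of 1484 CPM, and ranked 68th of 1915 miRNAs by mean level. In heart it ranged from 2.56 to 100.3 CPM, with a median of 42.7 CPM. In lung it ranged from 1.27 to 22.4 CPM, with a median of 8.70 CPM and between 4 and 78 counts in a library. Brain did not overlap with heart or lung, whereas heart and lung overlapped. In bulk samples, fewer cells of a type and less RNA per cell cannot be told apart, and this holds for each level that follows. Pooled over all libraries of a fraction, WBC held 12 counts of miR-204-5p (0.105 CPM) and RBC held 9 counts (0.0735 CPM). It was at 0 in 18 of 27 WBC libraries and 27 of 35 RBC libraries, so differences between groups were not detectable in blood at this depth.

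**Figure D1:**
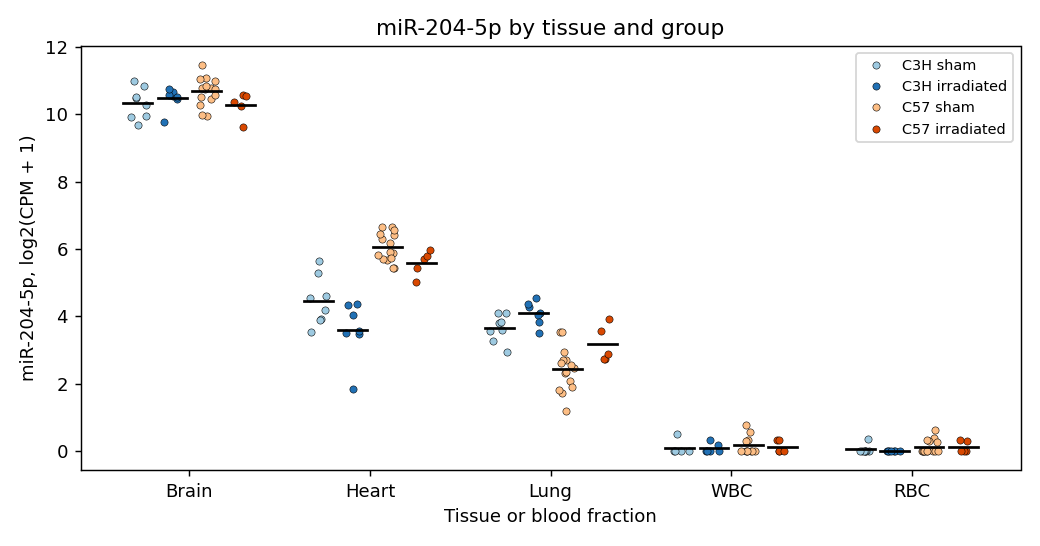
miR-204-5p in each library as log2(CPM + 1), by tissue or blood fraction, with a point for each library, colours for strain and irradiation, and a bar at each group mean. Brain libraries lie between 789 and 2819 CPM, far above heart and lung, and blood libraries lie at or near 0.

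The order of tissues was seen within animals as well, because each of the 35 mice gave brain, heart and lung. Brain was above heart in 35 of 35 animals, by a median of 33.2-fold, and above lung in 35 of 35, by a median of 193-fold. These folds depend on the scaling. With TMM over all libraries, mean levels were 709 CPM in brain, 53.1 CPM in heart and 8.13 CPM in lung, against 1512, 44.1 and 9.35 CPM. Heart was above lung in 29 of 35 animals. All 6 exceptions were C3H mice, 5 irradiated and 1 sham. The log2 ratio of heart to lung was 3.95 ± 0.76 in C57 sham mice (SD, n = 15) and 2.56 ± 0.83 in irradiated C57 mice (n = 5), against 0.85 ± 0.63 in C3H sham mice (n = 8) and −0.57 ± 1.28 in irradiated C3H mice (n = 7). The mean ratio was lower in irradiated than in sham mice of both strains. The lowest ratio, −3.13, belonged to the C3H mouse whose heart library stood apart, and without it the irradiated C3H mean was −0.15 ± 0.67 (n = 6).

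**Figure D2:**
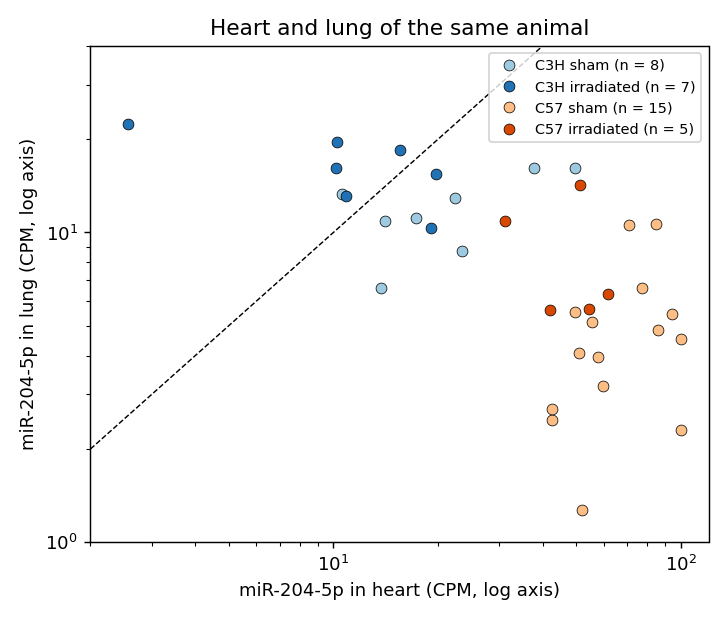
miR-204-5p in heart (x axis) and lung (y axis) of the same animal, both in CPM on log axes, with a point for each of 35 mice and a dashed line where both are equal. All 20 C57 mice lie below the line, with heart above lung, and 9 of 15 C3H mice do.

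The 2 strains differed in opposite directions in heart and lung. In heart, C57 sham females ranged from 42.6 to 59.5 CPM with a median of 51 CPM (n = 7), and C3H sham females from 10.6 to 49.5 CPM with a median of 19.8 CPM (n = 8). Of the 7 C57 females, 5 lay above every C3H female. In the fit to quantile-normalised log2 values, C57 sham females were 1.61 ± 0.20 (log2, SE) above C3H sham females, a 3.05-fold difference that ranked 16th of 312 miRNAs by size. It met the call rule used throughout, an adjusted p under 0.05 and a log2 difference of at least 1.17 in either direction, as did 11.5% of the miRNAs tested in heart, and since strain was used to choose the members, nothing is read from that call. Other lists moved with strain in heart. The oligodendrocyte list spanned 71.6 to 567 CPM in C3H sham and 41.2 to 70.7 CPM in C57 sham females, and the erythrocyte list 608 to 2740 CPM and 340 to 704 CPM. Only 1 of the 3 oligodendrocyte miRNAs had a median above 1 CPM in sham hearts of either strain. Their part in the result was not tested. Irradiated C57 hearts, at 31.1 to 61.9 CPM (n = 5), did not overlap with irradiated C3H hearts, at 2.56 to 19.7 CPM (n = 7, or 10.2 to 19.7 CPM without the library that stood apart). The share of all heart miRNAs without such overlap is not given here.

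In lung, C57 sham females ranged from 1.27 to 5.52 CPM with a median of 3.19 CPM (n = 7), and C3H sham females from 6.62 to 16.2 CPM with a median of 12 CPM (n = 8). These groups did not overlap, and the share of all lung miRNAs without such overlap is not given here. The fitted difference was −1.66 ± 0.27 (log2, SE), with C57 3.16-fold lower, ranked 5th of 350 by size. It met the call rule, as did 5.71% of the miRNAs tested in lung, and nothing is read from it. C57 sham males, at 2.30 to 10.6 CPM, overlapped with C3H females. Lung strain groups also differed in the summed ciliated epithelium list (5 of 5 miRNAs above 1 CPM in each group), which spanned 3408 to 5242 CPM in C3H sham and 6104 to 12705 CPM in C57 sham lungs, and its part in the result was not tested.

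In brain, the strains lay close together. C57 sham females ranged from 989 to 2036 CPM with a median of 1418 CPM (n = 7), and C3H sham females from 824 to 2036 CPM with a median of 1347 CPM (n = 8). The fitted difference was −0.09 ± 0.19 and was not called, against 2.77% called of the 433 miRNAs tested in brain. Within the title letters the brain values went opposite ways, with a log2 difference of 0.50 ± 0.24 among letter A and −0.72 ± 0.15 among letter B libraries. All 3 C57 sham females of letter B are among the 4 brain libraries that stood apart. The heart difference was 1.39 ± 0.27 in letter A and 1.85 ± 0.23 in letter B, and the lung difference −1.49 ± 0.31 and −1.93 ± 0.43, given as descriptions.

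**Figure D3:**
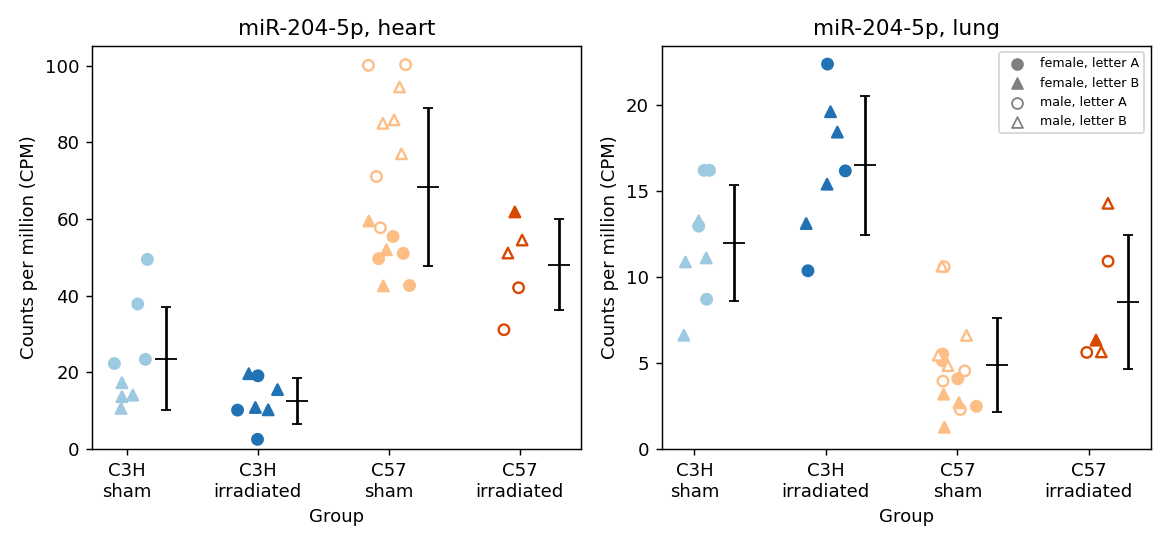
miR-204-5p (CPM) in heart (left) and lung (right) by group, with a point for each library, filled for females and open for males, circles for letter A and triangles for letter B, and mean ± SD bars beside each group. C57 sham females (50.4 CPM in heart and 3.48 CPM in lung on average) lie mostly above C3H sham females (23.6 CPM) in heart, with overlap, and below them (12 CPM) in lung, while the drawn C57 bars pool both sexes.

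C3H sham hearts and brains fell into separate ranges by letter, in opposite directions. In brain, the 4 letter A libraries ranged from 824 to 1252 CPM and the 4 letter B libraries from 1442 to 2036 CPM. In heart, the 4 letter A libraries held 22.3, 23.4, 37.9 and 49.5 CPM and the 4 letter B libraries 10.6, 13.7, 14.1 and 17.3 CPM, with no overlap. How many other miRNAs separated by letter in C3H sham libraries is not given here. The summed list of 5 smooth muscle and fibroblast miRNAs also separated the hearts, at 58923 to 81090 CPM in letter A and 41644 to 53547 CPM in letter B. The leukocyte list did so too, at 1655 to 10253 CPM against 1065 to 1582 CPM, and so did the oligodendrocyte list, of which 1 miRNA of 3 had a median above 1 CPM in heart, at 274 to 567 CPM against 71.6 to 87.2 CPM. The cardiac muscle list overlapped, at 216176 to 253847 CPM against 243135 to 291001 CPM. Base composition separated by letter as well, measured by the GC-rich minus GC-poor gap described further on. In heart, over 8 GC-rich and 43 GC-poor miRNAs, it spanned −1.16 to −0.32 (log2) in letter A and −0.01 to 0.19 in letter B. In brain it spanned −0.17 to 0.32 in letter A and −0.58 to −0.18 in letter B. The part of the lists in the heart values was not tested, nor was that of base composition in either tissue.

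The letter in the titles, which the labels do not explain, was tested over all groups. No difference of miR-204-5p passed. Letter B minus A, which was not used to choose the members, was 0.17 ± 0.14 in heart (limma, adjusted p = 0.667), −0.12 ± 0.17 in lung (adjusted p = 0.927) and 0.21 ± 0.14 in brain (adjusted p = 0.816), on the log2 scale. The 95% interval (normal, unadjusted) of the difference ran from −0.11 to 0.44 in heart, −0.45 to 0.22 in lung and −0.06 to 0.48 in brain. For miR-204-3p in brain it was 0.27 ± 0.31 (adjusted p = 0.894). By limma, 0% of the miRNAs tested were called by letter in each tissue, with 27, 20 and 26 at an unadjusted p under 0.05 in heart, lung and brain. edgeR and DESeq2 each called 1 in lung and 0 in heart and brain. Whether the letter acts differently in the 2 strains was not tested.

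Mean miR-204-5p was lower in irradiated than in sham hearts of both strains. C3H sham hearts ranged from 10.6 to 49.5 CPM with a median of 19.8 CPM (n = 8) and irradiated C3H hearts from 2.56 to 19.7 CPM with a median of 10.9 CPM (n = 7). All 7 irradiated hearts lay below the sham median, and 3 lay below every sham heart. The fitted difference was −0.88 ± 0.23 (log2, SE), a 1.84-fold lower level, and was not called, against 6.73% of heart miRNAs called in this comparison. The lowest value, 2.56 CPM from 11 counts, came from the library that stood apart by its cardiac miRNAs, and without it the difference was −0.66. Among letter A hearts, whose 3 irradiated libraries (2.56, 10.2 and 19.1 CPM) include that library, the difference was −1.50 ± 0.33. Among letter B hearts, where irradiated and sham means were 14.1 and 13.9 CPM, it was −0.36 ± 0.27. Whether the letters differed in this was not tested. The ciliated epithelium list, made up of miR-34b, miR-34c and miR-449a, spanned 184 to 724 CPM in irradiated and 61.9 to 200 CPM in sham C3H hearts. The study lists miR-34a-5p, miR-34b-3p and miR-34c-3p as differentially expressed in C3H heart. Whether the list moved through ciliated cells or through these miRNAs themselves was not tested, nor was its part in the result.

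In C57, irradiated hearts held 31.1, 42.1, 51.1, 54.5 and 61.9 CPM (n = 5), against 42.6 to 100.3 CPM with a median of 59.5 CPM in sham hearts (n = 15). Of the 5, 4 lay below the sham median and 2 below every sham heart. The difference was −0.55 ± 0.21 and was not called, against 0.962% called. The single irradiated female had the highest of the 5 values, whereas sham females were lower than sham males. Among males alone, irradiated hearts at 31.1 to 54.5 CPM (n = 4) did not overlap with sham hearts at 57.7 to 100.3 CPM (n = 8), and the difference was −0.80 ± 0.23, still short of the fold. The share of all heart miRNAs without overlap among males is not given here, so nothing is read from this separation. The ciliated list, of the same miR-34b, miR-34c and miR-449a, spanned 77.8 to 178 CPM in irradiated and 28.8 to 123 CPM in sham C57 hearts. Its part in the result was not tested. The difference of the 2 strains' differences, C57 minus C3H, was 0.33 ± 0.31, or 0.12 without the C3H library that stood apart.

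In lung, miR-204-5p had higher mean CPM after irradiation in both strains, but the C3H difference was not seen after normalisation. Irradiated C57 lungs held 5.62, 5.65, 6.33, 10.9 and 14.3 CPM (n = 5), against 1.27 to 10.6 CPM with a median of 4.55 CPM in sham lungs (n = 15), so that all 5 lay above the sham median and 2 above every sham lung. The fitted C57 difference was 0.57 ± 0.26 and was not called, against 6% called, and among males alone it was 0.34 ± 0.29. The leukocyte list spanned 5564 to 6829 CPM in irradiated C57 lungs, all 5 above the sham median of 3741 CPM (2393 to 9748 CPM), and its part in the result was not tested. Irradiated C3H lungs ranged from 10.4 to 22.4 CPM with a median of 16.2 CPM (n = 7), and sham C3H lungs from 6.62 to 16.2 CPM with a median of 12 CPM (n = 8). Means were 16.5 ± 4.0 and 12 ± 3.4 CPM (SD). The fitted C3H difference was nevertheless 0.03 ± 0.24 and was not called, against 9.71% called. With library size as the only scaling, the median of all lung miRNAs in this comparison lay 0.35 higher (log2) than with quantile normalisation, and the miR-204-5p difference was 0.47. Marker lists moved with irradiation in C3H lung. The endothelium list spanned 297017 to 390147 CPM in irradiated and 380361 to 444378 CPM in sham lungs, the cardiac muscle list 2569 to 5226 CPM and 4759 to 7515 CPM, and the oligodendrocyte list (1 of 3 miRNAs with a median above 1 CPM) 68.9 to 235 CPM and 194 to 304 CPM. Their part in the result was not tested.

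The brain lay outside the radiation field. Irradiated C57 brains held 789, 1211, 1313, 1484 and 1514 CPM (n = 5), and sham brains 989 to 2819 CPM with a median of 1722 CPM (n = 15). All 5 lay below the sham median, and the lowest came from a letter B female, 1 of the 4 brain libraries that stood apart. The difference was −0.34 ± 0.21 in C57 and 0.17 ± 0.21 in C3H, where irradiated brains ranged from 878 to 1736 CPM (n = 7) and sham brains from 824 to 2036 CPM (n = 8). By limma, 0% of the brain miRNAs tested were called in either strain, with 9 in C3H and 53 in C57 at an unadjusted p under 0.05. edgeR called 0 in both strains, and DESeq2 called 0 in C3H and 2 in C57. The difference of differences was −0.51 ± 0.30.

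**Figure D4:**
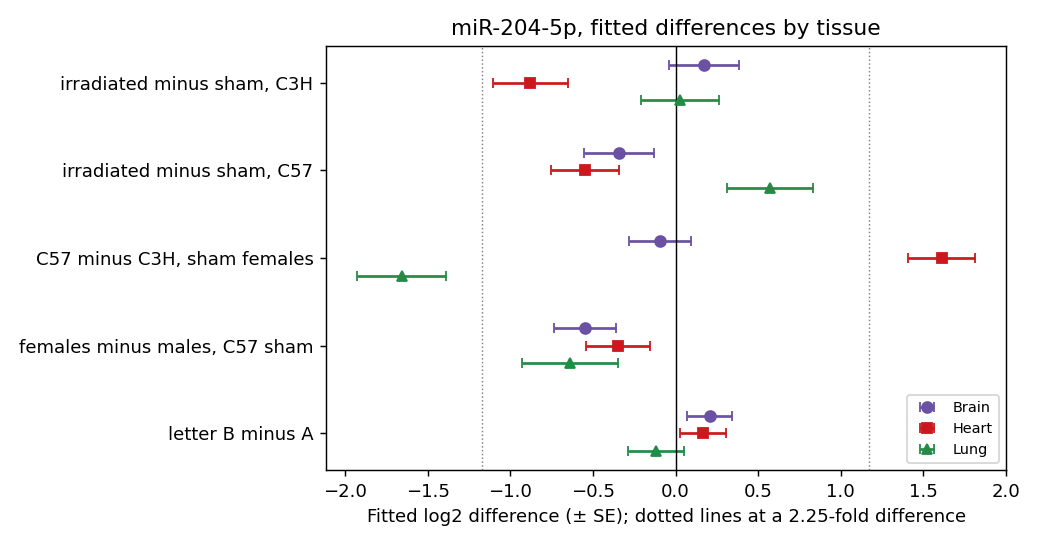
Fitted log2 differences of miR-204-5p (points) with their SE (bars) for 5 comparisons (rows) in brain, heart and lung, with dotted lines at the fold of the call rule (a log2 difference of 1.17) in either direction. The strain difference is 1.61 in heart and −1.66 in lung, and these are the only points beyond the dotted lines.

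Sex was not used to choose the members and was tested among C57 sham mice. The study's methods give an older starting age range for females than for males, so sex and age cannot be told apart. Mean CPM of miR-204-5p was lower in females in all 3 tissues, but no difference met both parts of the call rule. In heart, females held 50.4 ± 6.2 CPM (SD, n = 7) and males 83.9 ± 14.8 CPM (n = 8), all 7 females lay below the male median and 6 of 7 below every male. The fitted difference, females minus males, was −0.35 ± 0.20 (log2, SE; limma, adjusted p = 0.140), against 8.33% of heart miRNAs called by sex. With library size alone it was −0.72 (adjusted p = 0.0344), and the median of all heart miRNAs moved by −0.34. The marker lists moved with sex in heart too, the smooth muscle and fibroblast list spanning 36273 to 44262 CPM in females and 43914 to 60126 CPM in males, the leukocyte list 986 to 1592 CPM and 1672 to 2603 CPM, and the oligodendrocyte list (1 of 3 miRNAs with a median above 1 CPM) 41.2 to 70.7 CPM and 155 to 326 CPM, and their part in the result was not tested.

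In brain, females held 1423 ± 379 CPM (SD, n = 7) and males 1959 ± 419 CPM (n = 8), with 4 of 7 females below every male. The fitted difference was −0.55 ± 0.19 (limma, adjusted p = 0.0351), under the threshold on p but short of the fold in the call rule, against 4.16% called. It did not pass without the 4 letter B females (−0.35, limma, adjusted p = 0.408, with 3 of the 4 among the sham females) or among letter A mice alone (−0.28, limma, adjusted p = 0.666). Both of these subsets were chosen after seeing the data. Among the marker lists, the ciliated list spanned 1006 to 1932 CPM in female and 1923 to 2329 CPM in male brains, and the Htr2c-hosted list described further on 636 to 1032 CPM and 874 to 1165 CPM. Their part in the result was not tested. In lung, females held 3.48 ± 1.52 CPM (n = 7) and males 6.12 ± 3.03 CPM (n = 8), and the difference of −0.64 ± 0.29 did not pass (limma, adjusted p = 0.133), against 2.29% called. It was −1.31 among letter B mice (limma, adjusted p = 0.0320) and −0.0059 among letter A mice (limma, adjusted p = 0.993). This split by letter was chosen after seeing the data, so no conclusion is drawn from it. The 3 letter B females held only 12, 4 and 9 counts. In female and male lungs the leukocyte list spanned 2393 to 3833 CPM and 3572 to 9748 CPM, the cardiac muscle list 2724 to 5974 CPM and 4250 to 7697 CPM, and the erythrocyte list 344 to 2121 CPM and 106 to 756 CPM, and their part in the result was not tested. The unadjusted 95% intervals ran from −0.73 to 0.04 in heart and from −1.20 to −0.07 in lung.

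miR-204-3p, the passenger arm, was measurable in brain only, at 2 to 43 counts a library. It ranged from 0.758 to 11.4 CPM with a median of 2.50 CPM over 35 brains, and made up 0.217% of the 153272 counts of both arms (exact binomial 95% interval 0.195% to 0.242%, counting error only). With TMM over all libraries, the mean brain level of miR-204-3p was 1.55 CPM, against 3.14 CPM. Pooled counts were 5 in heart and 1 in lung. WBC and RBC held 0 counts, which allows up to 0.0262 CPM and 0.0245 CPM, respectively, from 3 counts of the pooled totals. Outside brain the 3p arm was too low for groups to be compared.

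Among the 4 brain libraries of C57 females of letter B were the 3 highest miR-204-3p values. The 4 held 11.4, 9.18, 8.06 and 4.88 CPM of miR-204-3p (43, 23, 30 and 16 counts). The other 31 brain libraries ranged from 0.758 to 6.05 CPM with a median of 2.21 CPM, and 1 of them exceeded the lowest of the 4. In the same 4 libraries miR-204-5p was not high, at 789 to 1535 CPM, so the 3p arm took 0.747% of the counts of both arms there (0.615% to 0.898%) against 0.160% (0.139% to 0.182%) in the others. These 4 libraries also differed in base composition. The median deviation of 30 GC-rich miRNAs (at least 60% GC) exceeded that of 61 GC-poor ones (under 40% GC) by 0.76 to 1.58 (log2) in the 4 libraries, against −0.58 to 1.12 in the others, over the 322 miRNAs with a brain median of at least 10 CPM, of which 282 (87.6%) had a sequence. miR-204-3p is 61.9% GC and miR-204-5p 45.5% GC. The summed miR-200 family list spanned 2953 to 20622 CPM in the 4 libraries and 97.6 to 41037 CPM, with a median of 352 CPM, in the others. The part of either in the values of miR-204-3p was not tested.

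**Figure D5:**
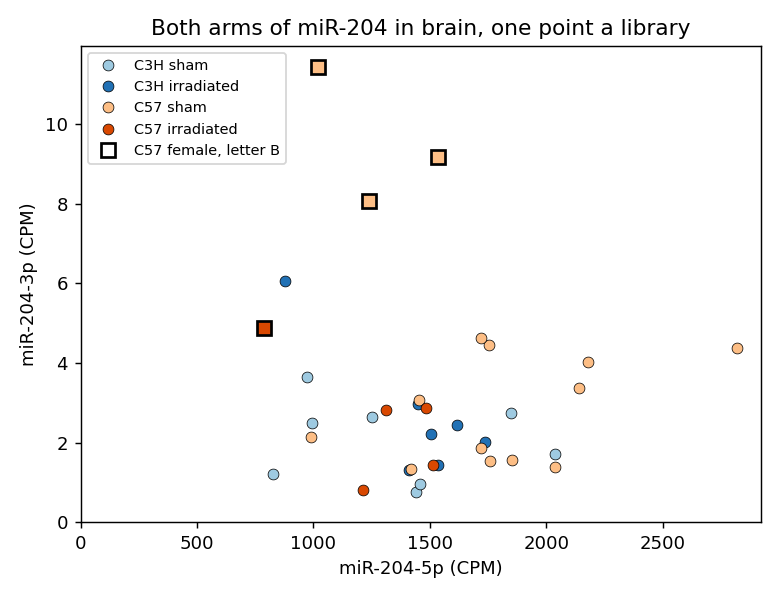
miR-204-5p (x axis) and miR-204-3p (y axis) in CPM in the 35 brain libraries, coloured by strain and irradiation, with squares for the 4 C57 females of letter B. The squares hold 4.88 to 11.4 CPM of miR-204-3p, and 3 of them lie above all other libraries, while their miR-204-5p is at or below 1535 CPM.

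Group differences of miR-204-3p in brain changed with those libraries. C57 sham females ranged from 1.35 to 11.4 CPM (n = 7) and C3H sham females from 0.758 to 3.64 CPM (n = 8), a difference of 1.22 ± 0.43 (log2, SE) that was not called. It was 1.28 with the letter as a covariate, 1.45 by edgeR and 1.50 by DESeq2, which met the call rule. edgeR called 17 and DESeq2 19 of the 433 miRNAs in this comparison, and since strain was used to choose the members, nothing is read from these calls. The difference was 2.55 ± 0.43 in letter B, −0.02 ± 0.56 in letter A, and 0.28 ± 0.42 without the 4 libraries. By sex, females held 5.45 ± 4.11 CPM (SD, n = 7) and males 3.03 ± 1.24 CPM (n = 8), and the difference of 0.86 ± 0.41 did not pass (limma, adjusted p = 0.118). It was 1.99 in letter B (limma, adjusted p = 0.000385), −0.09 in letter A (adjusted p = 0.962) and −0.05 without the 4 libraries (adjusted p = 0.964). These subsets were chosen after seeing the data, so no conclusion is drawn from them. Irradiated minus sham was 0.44 ± 0.49 in C3H and −0.44 ± 0.47 in C57, and neither was called.

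miR-211-5p, the melanocyte-lineage member, was near the counting floor in every tissue, with 0 to 7 counts in a library. How reads were assigned between it and miR-204-5p, which differs by 1 base, is not given in the sources used here, and whether some of its counts are misread or misassigned miR-204-5p was not tested. This bears most on brain, where miR-204-5p is highest. Pooled levels were 1.29 CPM in brain (131 counts), 0.666 CPM in lung (83 counts), 0.430 CPM in heart (49 counts), 0.105 CPM in WBC (12 counts) and 0.0571 CPM in RBC (7 counts). These levels depend on the scaling. With TMM over all libraries, mean levels were 0.621 CPM in brain, 0.580 CPM in lung and 0.564 CPM in heart, against 1.33, 0.649 and 0.474 CPM. Single libraries of brain, lung and heart overlapped, and the order of these tissues differed between groups. In C57 sham mice, mean heart (0.673 CPM) was above mean lung (0.542 CPM), and in irradiated C57 mice mean lung (1.04 CPM) was above mean brain (0.796 CPM). Of the counts of both guide strands, miR-211-5p made up 0.0856% in brain (exact binomial 95% interval 0.0716% to 0.102%), 1.02% in heart (0.753% to 1.34%) and 6.58% in lung (5.28% to 8.09%). In C57 lung the share was 10.4% (7.81% to 13.5%) and in C3H lung 4.30% (2.99% to 5.95%), with sham and irradiated lungs pooled. Single lungs overlapped, at 0% to 20.0% (median 11.1%) in C57 and 0% to 18.5% (median 2.56%) in C3H. miR-211-5p itself was 0.542 ± 0.388 CPM in C57 sham (SD, n = 15) and 0.792 ± 0.543 CPM in C3H sham lungs (n = 8), but 1.04 ± 0.228 CPM in irradiated C57 (n = 5) and 0.434 ± 0.286 CPM in irradiated C3H lungs (n = 7).

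By group, miR-211-5p overlapped in nearly every comparison. Irradiated C57 lungs held 0.770 to 1.35 CPM (n = 5), inside the sham range of 0 to 1.40 CPM (n = 15), with all 5 above the sham median. Irradiated C3H lungs held 0 to 0.782 CPM (n = 7) and sham 0 to 1.50 CPM (n = 8). Between C57 sham females and males, the exact permutation test of mean CPM (two-sided, 3 tissues adjusted together) gave p = 0.620 in brain (adjusted p = 0.620), p = 0.380 in heart (adjusted p = 0.620) and p = 0.469 in lung (adjusted p = 0.620). The differences, females minus males, were −0.172, −0.237 and −0.154 CPM, each smaller than the value of 1 count in the shallowest library of that tissue. No difference by sex was detectable at this depth.

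Of the related miRNAs that are no members, miR-211-3p was at 0 counts in all libraries of the 5 tissues. miR-7670-3p, which has the same seed and lies in an exon of Ubn2, had the reverse tissue pattern to miR-204-5p, with a pooled 1.51 CPM in WBC and 1.79 CPM in RBC, 0.136 CPM in lung, 0.0964 CPM in heart and 0.0197 CPM in brain. It was seen in all 27 WBC and all 35 RBC libraries and in 2 of 35 brain libraries.

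The 10 mature miRNAs hosted by Htr2c, a serotonin receptor gene used strongly in choroid plexus, were taken as a list because miR-204 is known from that tissue. The list was chosen with earlier results of these data known, so its calls and p-values are descriptions. Its miRNAs share a host gene and are not independent of each other. Summed, they spanned 519.9 to 1165 CPM in brain and 12.1 to 177 CPM in lung, and in heart stayed at or below 9.67 CPM. In brain, 7 of 10 were tested and limma, edgeR and DESeq2 each called 0 by irradiation in either strain, by strain or by sex, with 0, 1, 1 and 4 at an unadjusted limma p under 0.05, in that order. All 7 sex differences, females minus males, were below 0, with a median of −0.53 against −0.13 over all brain miRNAs. Of the 7, miR-448-3p (−0.76, limma, adjusted p = 0.00891) and miR-1298-5p (−0.66, limma, adjusted p = 0.00513) were under the threshold on p and short of the fold. In lung, 5 of 10 were tested. In irradiated C57 lung 4 of the 5 were called lower (median −1.22 against −0.05 over all), beside 2.29% of all lung miRNAs called lower there (8 of 350, these 4 included). Among the 4 were miR-1912-3p at −1.96 ± 0.54 (limma, adjusted p = 0.0109) and miR-1298-5p at −1.22 ± 0.43 (limma, adjusted p = 0.0442). In irradiated C3H lung limma, edgeR and DESeq2 each called 0 of 5, with 1 at an unadjusted limma p under 0.05 (median −0.79 against −0.08), beside 3.43% of all lung miRNAs called lower there. miR-204-5p, at 0.57 and 0.03 in the same comparisons, did not share that direction. The C57 count rested on single libraries, falling to 0 without replicate 5, the only irradiated C57 female, to 1 without replicate 4 and to 2 without replicate 1. It was 1 or 2 under other scalings, tools and filters, 3 with the letter as a covariate and 4 in letter B. It was 0 among C57 males alone, in C57 fitted alone and in letter A. For the difference of the 2 strains, the 5 had adjusted p-values of 0.507 to 0.999 (limma).

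By mean pattern over the 20 groups, the miRNAs most like miR-204-5p among 400 were miR-381-3p (Pearson r = 0.99 over 20 group means of log2(CPM + 1)), miR-874-3p, miR-136-5p, miR-434-3p and miR-431-5p, all with r from 0.985 to 0.988. The groups share animals and fall into 5 tissues, and the likeness is mainly the fall from brain through heart and lung to blood. miR-381-3p, for example, had medians of 4262 CPM in brain, 33.8 CPM in heart and 16.6 CPM in lung. Within brain, where deviations from group means were compared over 35 libraries and 321 miRNAs, the most alike were miR-23b-3p (r = 0.87), miR-30c-5p (0.85), miR-497a-5p (0.85), miR-30b-5p (0.84) and miR-1264-3p (0.82), the last of which is on the Htr2c list. The points share library depth and base composition. The deviations of miR-204-5p had r = −0.68 with the GC-rich minus GC-poor gap of the library, those of miR-204-3p r = 0.73, and the 2 arms r = −0.33 with each other.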

How the data were processed

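As stated in the methods of the study, the authors trimmed the reads of small RNA libraries (QIAseq miRNA kit) and aligned them to mouse miRNAs (mm10) in BaseSpace. The deposited values are raw counts per mature miRNA, which the authors did not normalise. Use of molecular identifiers and assignment of reads that fit several miRNAs were not given in the sources used here. All count columns matched a sample. Counts of any 2 libraries in a group differed beyond sampling noise (smallest chi-square per degree of freedom 15.5). Binomial intervals and floors cover counting error only.

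From the counts, CPM of the library total was computed. Differences were fitted per tissue in R 4.3.3 with limma 3.58.1 (voom, quantile normalisation of log2 values, as in the study) after filterByExpr of edgeR 4.0.16 (count minimum 10, total minimum 15), with 4 groups (strain by irradiation), 6 groups (with sex) or 4 groups and the letter. Adjusted p-values are limma's, two-sided, Benjamini-Hochberg adjusted over all miRNAs tested in the tissue. Normal 95% intervals of a difference, from limma's error between libraries, and exact binomial intervals of shares are given. Exact permutation tests used scipy 1.17.1. The fits were also run on simulated counts with a fixed spread and no strain, sex or letter effects, which checks the code and not these data. Alternatives used TMM, library size alone, edgeR, DESeq2 1.42.0, other filters, and fewer libraries.

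The members and lists were chosen with earlier results of these data known. Named beside them were miR-211-3p, miRNAs with the same seed, the Htr2c-hosted list, and the 5 miRNAs most correlated with miR-204-5p over group means (at least 10 CPM in a group) and within brain (the only tissue with a median of at least 100 CPM). Plasma was not analysed here.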

Additional observations from a re-analysis of the deposited data

Results flagged for a closer look

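Among 21 groups of 4 to 10 libraries checked for a member, 4 held a library far from the others, and chance alone flags about 1 in 20 groups. miR-204-5p was lowest, at 878 CPM, in replicate 2 of irradiated C3H brain, 1 of the 6 brain libraries that deviated most from the tissue median. It was also lowest, at 2.56 CPM, in replicate 3 of irradiated C3H heart, the library with few cardiac miRNA counts. miR-211-5p was highest, at 0.336 CPM, in replicate 1 of irradiated C3H heart, where 1 count is behind the value, and at 1.70 CPM in replicate 3 of C3H sham heart, from 6 counts.

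Effects that went opposite ways in every library of the group, relative to the median of the other group, were the following. Whether the paired effects differ from each other was not tested. For miR-204-5p, C57 sham females were above the C3H sham median in heart (log2 difference 1.61) and below it in lung (−1.66). Irradiated C57 mice were below the sham median in brain (−0.34) and above it in lung (0.57). For miR-211-5p, at a few counts a library, irradiated C57 mice were below the sham median in brain (mean difference −0.761 CPM) and above it in lung (0.503 CPM), irradiated C3H lungs were below it (−0.358 CPM), and C57 sham females were above the C3H sham median in brain (0.186 CPM) and below it in lung (−0.333 CPM). The brain direction turned with the letter, with means of 1.83 against 0.472 CPM in letter A and 0.978 against 2.09 CPM in letter B.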

How the results depend on the processing

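Over the alternatives, the strain difference of miR-204-5p, on which the members were chosen, ranged from 1.24 to 1.88 (log2) in heart and −1.93 to −1.49 in lung, which is a description and no support for it. No called result reversed, but the uncalled strain difference of miR-204-5p in brain kept its sign in 4 of 10. Libraries of 1 letter alone, and brain without the 4 C57 females of letter B, were alternatives chosen after seeing the data, as was the count of Htr2c-hosted miRNAs.

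The sex difference of miR-204-5p in brain (−0.55, limma, adjusted p = 0.0351) was short of the fold throughout and had an adjusted p above 0.05 with TMM (−0.38), edgeR (−0.36), DESeq2 (−0.32), the looser filter (−0.56), letter A alone (−0.28) or without the 4 libraries (−0.35), with adjusted p over its alternatives from 0.000215 to 0.666. In heart its adjusted p was under 0.05 with library size alone (−0.72) and letter B alone (−0.55) and in lung with DESeq2 (−0.79), all short of the fold. The call rule was met with letter B alone in lung (−1.31, against −0.0059 with letter A alone) and for miR-204-3p in brain (1.99). For irradiation, the C3H heart difference was −1.50 in letter A, which met the call rule and from which nothing is read, and −0.36 in letter B. The brain strain difference of miR-204-5p was 0.50 in letter A and −0.72 in letter B, and that of miR-204-3p −0.022 in letter A, 2.55 in letter B and 0.28 without the 4 libraries. Among all libraries, edgeR (1.45), DESeq2 (1.50) and the letter as a covariate (1.28) put miR-204-3p past the call rule, from which nothing is read. TMM over all libraries lowered the mean brain level of miR-204-5p from 1512 to 709 CPM, with the order of tissues unchanged (53.1 CPM in heart, 8.13 CPM in lung). The cause was not tested.

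Without 1 irradiated library at a time, miR-204-5p differences ranged from −0.99 to −0.66 in C3H heart, −0.64 to −0.43 in C57 heart, −0.03 to 0.08 in C3H lung, 0.38 to 0.68 in C57 lung, 0.12 to 0.27 in C3H brain and −0.40 to −0.20 in C57 brain, none called. The Htr2c count in C57 lung (4) was 0 to 4. Fits in blood were not run, since no member passed the filter there, and the stricter filter left out miR-204-5p in lung and miR-204-3p in brain. No paired analysis was possible because each animal has its own number and no groups of a tissue share one. Depth limits miR-211-5p, and miR-204-3p outside brain, to a few counts a library.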
